A study of Mus musculus with 2 samples.

Results

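The genes described here encode the proteases that loosen the outermost epidermis and their partners. They are the kallikrein-related peptidase genes Klk5, Klk6, Klk7, Klk8, Klk10 and Klk11, the matriptase gene St14, the inhibitor genes Spink5 and Cst6, and Cdsn, whose product corneodesmosin is a substrate of these enzymes. Members were all probes whose gene symbol was 1 of these 10 names, 15 of the 25697 probes on the arrays. Each symbol was then checked against the RefSeq accession of its probe. After that check 12 probes represented 9 of the 10 genes, and 8 genes were detected on both arrays. Spink5 was not analysed here.

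Skin keratinocytes were compared between mice with floxed Vdr alleles (genotype VDR fl/fl, control) and mice with the same alleles plus Cre recombinase under the keratin 14 promoter (VDR fl/fl K14 driven Cre, labelled knockout). Vdr encodes the vitamin D receptor, and the keratin 14 promoter is active in basal epidermal cells and outer follicle cells, so Cre is directed to these cells and those derived from them. All mice were 3 months old, were littermates across the genotypes per the design text, and received a low calcium diet, which the controls shared. Keratinocytes came from epidermis lifted off the dermis with 0.25% trypsin. Each group was 1 Illumina bead array of RNA pooled from 3 mice, so the spread between mice was not measured, and no difference below has a replicate check or a p-value. The number of arrays limits the precision.

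As background, cells of the stratum corneum are held together by corneodesmosomes and leave the surface singly once these junctions are cut. Kallikreins are secreted serine proteases. KLK5 can activate itself and KLK7, and both degrade corneodesmosin, while the SPINK5 product LEKTI restrains them and cystatin M/E, the CST6 product, restrains cysteine proteases of the same layers. Matriptase is a membrane-anchored protease that acts upstream of prostasin and can activate pro-KLK5.

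Of the symbols in the annotation, 3 covered more than the gene now known by that name or a different gene. The array design used an older nomenclature in which Klk5, Klk6 and Klk8 also stood for glandular kallikreins. Of the 15 probes, 4 belonged to such genes by RefSeq, namely 2 probes of Klk1b5 filed as Klk5, 1 of Klk1 filed as Klk6 and 1 of Klk1b8 filed as Klk8. None of the 4 was above background, with signals of 129.1 to 144.8 on the control array and 125.9 to 137.6 on the array labelled knockout. The single probe filed as Klk8 therefore measured another gene, at 144.8 and 137.6. The present Klk8, which encodes neuropsin, was measured by a probe filed under the older name Prss19, and it had a signal of 6751.7 in control and 7651.4 in knockout. It is treated as Klk8 below, although the symbol of the file alone would not have selected it.

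A probe was called detected when its rank among the signals of its array corresponded to a detection p under 0.05, which meant a non-normalized signal of at least 163.5 in control and 159.2 in knockout. Each difference below is the log2 signal of the knockout minus the control after background removal and quantile normalization, and folds taken from the deposited normalized table, in which the background remains, stand beside it for comparison.

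**Figure D1:**
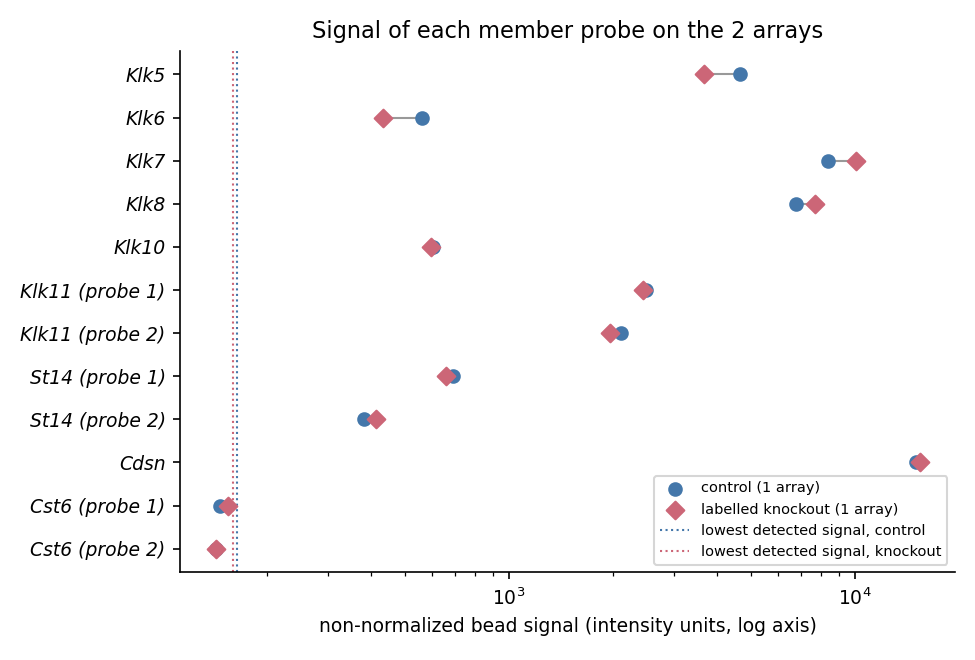
Non-normalized bead signal (x axis, intensity units, log scale) of the 12 member probes on the control array (circles) and the array labelled knockout (diamonds), with dotted lines at the lowest detected signal of each array. Klk5 and Klk6 lay lower and Klk7 and Klk8 higher on the array labelled knockout, and both Cst6 probes lay left of the lines.

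The chymotrypsin-like and trypsin-like kallikreins that start the cleavage of corneodesmosomes differed in opposite directions between the arrays. Klk5, the trypsin-like enzyme at the head of the cascade, had a signal of 4651.3 in control and 3673.7 in knockout. Klk7, the chymotrypsin-like stratum corneum enzyme that KLK5 can activate, had 8382.4 in control and 10100.0 in knockout. Klk5 was thus the lower and Klk7 the higher of the pair on the array labelled knockout relative to control, with log2 differences of -0.31 (1.24-fold lower) and 0.31 (1.24-fold higher). On the scale of the deposited normalized values, Klk5 was 1.23-fold lower (4908.2 against 3991.9) and Klk7 was 1.21-fold higher (8637.0 against 10488.3). The ratio of the knockout-to-control change of Klk7 to that of Klk5 was 1.53, and 1.49 in the deposited normalized values.

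Klk6 and Klk8, whose products neurosin and neuropsin are trypsin-like kallikreins also made in the nervous system, differed in opposite directions as well. Klk6 had a signal of 559.8 in control and 433.8 in knockout, a log2 difference of -0.40 (1.32-fold lower). Klk8 went from 6751.7 to 7651.4, a log2 difference of 0.22 (1.16-fold higher). Klk6 was 1.21-fold lower and Klk8 1.16-fold higher in the deposited normalized values. Of these 4 genes, Klk6 had the fold that changed most with background removal.

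Klk10 and Klk11 were nearly level between the arrays. Klk10, a kallikrein first described in normal breast epithelium, had signals of 604.4 and 596.0 and a log2 difference of 0.05. Klk11, which encodes the trypsin-like hippostasin, had 2496.3 and 2438.0 on its brighter probe and 2111.2 and 1956.3 on the other. These probes gave log2 differences of 0.00 and -0.06.

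**Figure D2:**
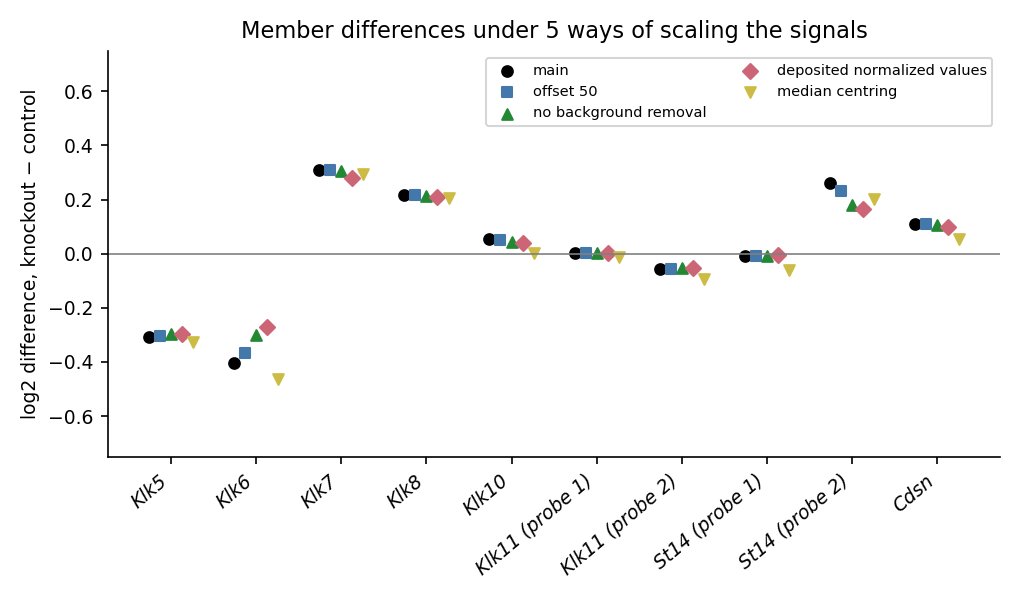
Log2 difference (y axis, knockout minus control) of each member probe detected on both arrays under 5 ways of scaling the signals. Klk5 and Klk6 lay below 0 and Klk7 and Klk8 above 0 under all 5, with Klk6 ranging from -0.46 to -0.27.

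The membrane protease, on its brighter probe, and the substrate differed little between the arrays, and the inhibitor with a probe gave no value. St14 had 690.5 in control and 657.1 in knockout on its brighter probe, a log2 difference of -0.01, and 381.8 and 413.0 on the dimmer probe, a difference of 0.26. The St14 probes therefore did not share a direction. The gap between them exceeded the median gap of 0.19 found over the 1488 genes with 2 probes detected on both arrays. It was under the 90th percentile of 0.57. Klk5, Klk6, Klk7 and Klk8 rested on 1 probe each, so their differences had no second probe to set beside them. Cdsn, a defining product of the upper epidermis, was among the brightest probes of each array at 15041.0 and 15371.8, with a log2 difference of 0.11 (1.08-fold). Cst6 was not detected on either array, its probes having 146.3 and 142.5 in control and 154.9 and 142.2 in knockout. On the control array 75.5% and 60.7% of the 1149 olfactory receptor probes, which serve as a reference for genes not expected in skin, were dimmer than these Cst6 probes, and on the other array 95.7% and 65.3% were. Since both arrays were below detection, no fold is given for Cst6. The member inhibitors thus provided no measured difference between the genotypes.

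None of the 8 detected members differed by 2-fold, where 2.39% of the 9547 detected genes did (1.28% higher and 1.11% lower in knockout). None differed by 1.5-fold either, where 9.08% of detected genes did. In the deposited normalized values the share of genes at 2-fold was 0.461%. Beside such shares, a count of 0 of 8 is not a result about the members. Over the 8392 genes detected on both arrays the median log2 difference was -0.01 and the median absolute difference 0.17.

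Bright genes differed less than dim ones, so the members were also read against genes of like brightness. Klk5, Klk7, Klk8 and Cdsn fell in the brightest 10% of these genes, where 840 genes had a median absolute log2 difference of 0.10 and a 90th percentile of 0.31. The absolute differences of Klk5 and Klk7 exceeded those of 89.5% and 89.9% of these genes, and that of Klk8 exceeded 79.6%. Klk6, in group 5 of 10 by brightness, exceeded 80.7% of the 839 genes there, whose 90th percentile was 0.55. The remaining detected members lay lower on their brightest probes, with 51.5% for Cdsn, 17.2% for Klk10, 3.0% for St14 and 1.4% for Klk11. The dimmer St14 probe, with a difference of 0.26, was not ranked. These percentages describe the 2 arrays alone.

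**Figure D3:**
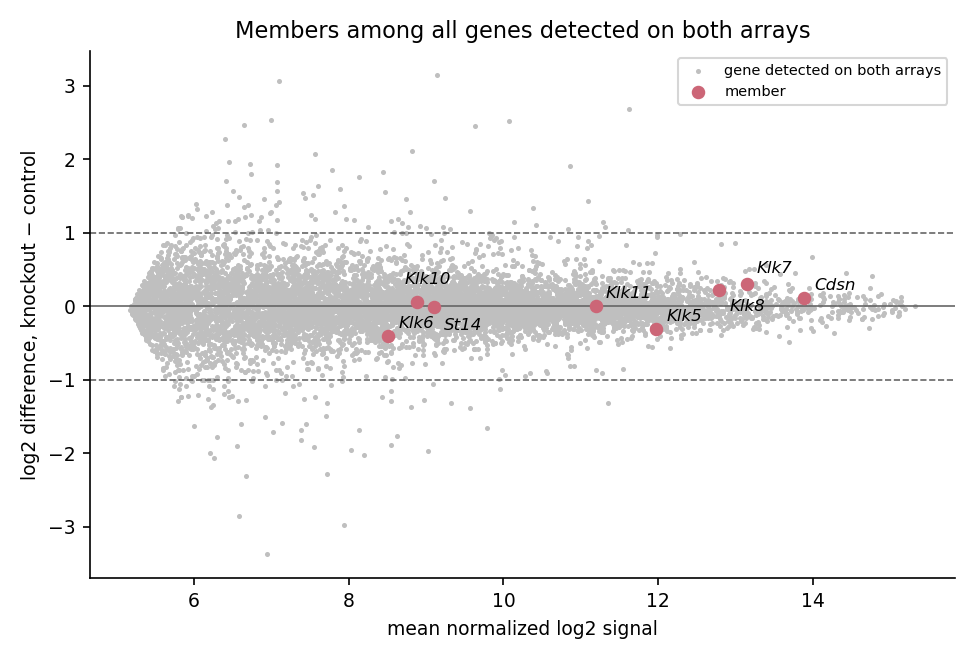
Log2 difference (y axis, knockout minus control) against the mean normalized log2 signal (x axis) of the 8392 genes detected on both arrays, with the 8 detected members marked and dashed lines at 2-fold. All members lay inside the 2-fold lines, with Klk5 and Klk7 near the edges of the narrow band formed by bright genes.

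The members of the kallikrein family lie side by side on mouse chromosome 7. In RefSeq order, Klk11 and Klk10 are followed by Klk9, Klk8, Klk7, Klk6 and Klk5. Along that order the genes with higher signal in knockout, Klk8 and Klk7, adjoined each other, as did the genes with lower signal, Klk6 and Klk5. Each rested on 1 probe with a difference under 1.5-fold, and whether neighbouring genes share a direction was not tested. Klk9 was not detected. Of the 19 other kallikrein genes on the array, 2 were detected, and 17 were not, among them every glandular Klk1b gene with a probe. Klk13, another gene of this cluster, had 207.7 in control and 167.2 in knockout on its brighter probe, a log2 difference of -0.87 (1.83-fold lower, 1.28-fold in the deposited normalized values), close to background, and 147.8 and 151.8 on a probe that was not detected. Klk14, a trypsin-like kallikrein of the same cascade, had 156.0 and 160.4 and was detected in knockout alone, just above the limit.

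**Figure D4:**
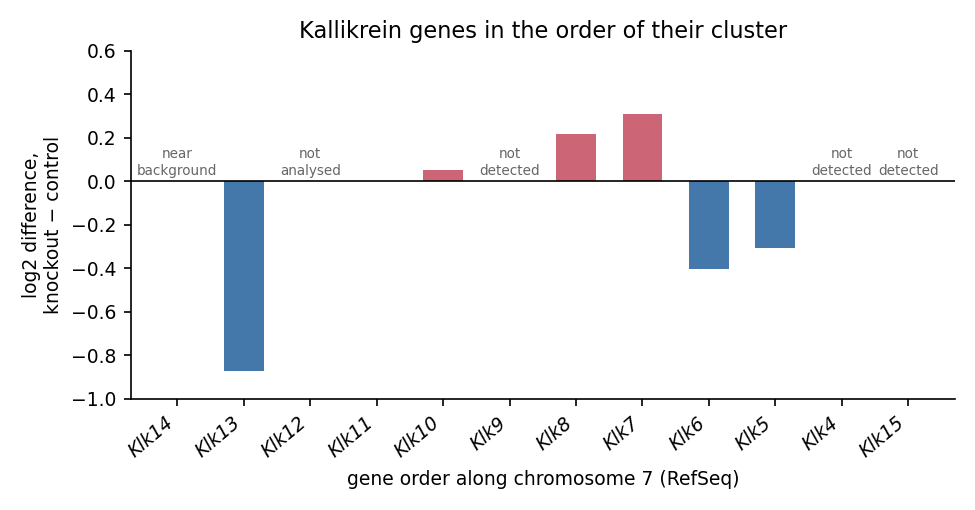
Log2 difference (y axis, knockout minus control) of kallikrein genes in their RefSeq order along chromosome 7 (x axis), with bars for genes detected on both arrays. Klk8 and Klk7 stood above 0 and the neighbouring Klk6 and Klk5 below 0, on 1 probe each, and the bar of Klk13 rests on a signal close to background.

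Promoter sequences were examined because the floxed gene encodes a receptor that binds DNA. With its partner RXR, the vitamin D receptor binds pairs of 6-base half-sites in the same orientation with a 3-base spacer. RefSeq promoters of GRCm38.p6, running from 250 bases before to 50 bases after each start, were matched by symbol for 7 of the 10 members (10 promoters). The promoters of the 4 kallikreins that differed most are shown, each on the + strand of GRCm38.p6, with matches on either strand to the half-sites AGGTCA and GGGTCA as well as AGTTCA and also GGTTCA in capitals.
Klk8 (chr7:43797327-43797626): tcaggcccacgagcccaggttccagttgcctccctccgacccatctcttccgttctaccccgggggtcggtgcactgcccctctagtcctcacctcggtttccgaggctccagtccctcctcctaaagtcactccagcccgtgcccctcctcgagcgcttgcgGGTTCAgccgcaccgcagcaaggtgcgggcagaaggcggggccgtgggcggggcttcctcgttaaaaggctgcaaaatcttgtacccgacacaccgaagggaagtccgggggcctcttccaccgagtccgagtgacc
Klk7 (chr7:43811044-43811343): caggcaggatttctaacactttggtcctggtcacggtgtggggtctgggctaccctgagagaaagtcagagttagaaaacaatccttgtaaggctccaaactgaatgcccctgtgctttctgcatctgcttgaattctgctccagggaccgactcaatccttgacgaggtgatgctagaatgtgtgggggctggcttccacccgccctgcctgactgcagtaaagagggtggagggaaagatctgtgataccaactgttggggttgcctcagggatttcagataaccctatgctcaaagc
Klk6 (chr7:43825200-43825499): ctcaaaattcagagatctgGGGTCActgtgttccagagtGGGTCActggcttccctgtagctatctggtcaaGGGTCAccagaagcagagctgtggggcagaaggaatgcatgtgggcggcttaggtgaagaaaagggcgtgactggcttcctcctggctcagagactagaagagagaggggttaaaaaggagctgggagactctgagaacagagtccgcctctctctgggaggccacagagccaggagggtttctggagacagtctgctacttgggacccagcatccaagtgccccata
Klk5 (chr7:43842019-43842318): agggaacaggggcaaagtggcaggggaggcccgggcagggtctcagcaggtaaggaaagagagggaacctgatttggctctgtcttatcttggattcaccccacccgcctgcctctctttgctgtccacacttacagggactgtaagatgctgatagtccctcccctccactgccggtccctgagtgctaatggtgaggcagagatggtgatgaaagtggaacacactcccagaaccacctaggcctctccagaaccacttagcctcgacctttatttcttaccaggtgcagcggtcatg

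The Klk6 promoter shown held GGGTCA 3 times, starting 231, 211 and 178 bases before the start, and a second Klk6 promoter held none of these letters. Klk8 held GGTTCA once, starting 87 bases before the start, and the promoters of Klk7 and Klk5 held no half-site. In all, 3 of the 10 member promoters had a half-site, where 43.7% of 32851 mouse promoters did. None held a pair spaced by 3 bases, which 0.0396% of all promoters did. These matches are letters in a window and were not tied to binding.

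Other proteases of the epidermis were mostly within 2-fold, as were detected genes as a whole, of which 2.39% were at 2-fold. Of 29 listed genes for surface, lysosomal and late-differentiation proteases, 28 had a probe and 21 were detected. The single one at 2-fold was Prss27, which encodes the serine protease marapsin, at 266.0 in control and 524.0 in knockout, a log2 difference of 1.59 (3.02-fold higher). Its fold was 1.97 in the deposited normalized values. The median of the list was 0.14 (0.07 with genes detected on 1 array set to their bound). Prss8, the gene of the matriptase target prostasin, named after its value was seen, had 884.4 and 1105.5, a log2 difference of 0.44. Ctsc, which encodes the lysosomal dipeptidyl peptidase cathepsin C, was 1.49-fold higher (1815.9 and 2580.8). Ctsz, the gene of the carboxypeptidase cathepsin Z, had 156.6 in control, where it was not detected, and 185.7 in knockout. Its bound of at least 1.7-fold higher holds for the background-removed scale alone, the fold being 1.34 in the deposited normalized values. The brightest genes of the list were Casp14 and Asprv1, whose proteases process filaggrin, with log2 differences of 0.45 and 0.30.

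Inhibitor genes differed in both directions and over a wider range than the member kallikreins. They were also more numerous and most were dimmer, and either can widen a range. The list held Kazal, WAP, Kunitz, cystatin and metalloprotease inhibitor genes, without serpins and stefin A genes. Of 34 names, 31 had a probe and 18 were detected, with 3 at 2-fold higher and 2 at 2-fold lower in knockout and a median log2 difference of 0.27 (0.20 with bounds, 0.14 in the deposited normalized values). In the deposited values 0 were at 2-fold higher and 2 at 2-fold lower. The median of the 6 kallikrein members was 0.03, with 4 above 0 and 2 below. The kallikrein members all had a mean signal of 400 or more. Among the 11 inhibitor genes under that level the median was 0.51. Among the 7 at or above it the median was -0.11, and 0.01 without Wfdc3, which reached that level through the control array alone. Listed after their values were seen, the 7 were Wfdc3 (-2.28), Timp2 (-1.38), Timp3 (-0.48), Cst3 (-0.11), Wfdc5 (0.13), Spint1 (0.15) and Cstb (0.25). Leaving out 1 gene thus changed the sign of their median, and no direction is given for it.

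Wfdc3, a WAP-domain gene, was 4.86-fold lower in knockout (604.1 and 218.4, 2.57-fold in the deposited normalized values). Timp2, a metalloprotease inhibitor gene, named after its value was seen, was 2.60-fold lower (1374.8 and 583.4, 2.11-fold in the deposited values). The Kazal-domain gene Spink14 was 3.25-fold higher (175.4 and 275.5, 1.73-fold in the deposited values). Spink1 and Wfdc2, also named after their values were seen, were 2.35-fold and 2.0-fold higher from signals of 167.2 and 169.8 in control, but 1.43-fold and 1.34-fold higher in the deposited values. The inhibitor genes at 2-fold higher were thus close to background in control, the array where they were lower. Wfdc3 and Timp2 had 218.4 and 583.4 in knockout, the array where these were lower. Wfdc18 had 150.2 in control, where it was not detected, and 194.7 in knockout. Its bound was at least 1.96-fold higher on the background-removed scale alone (1.51-fold in the deposited values). Of the brightest inhibitor genes, Cstb, which encodes the cathepsin inhibitor cystatin B, had a difference of 0.25 and Cst3, the gene of cystatin C, had -0.11. Spint1 and Spint2, the genes of the transmembrane inhibitors that restrain matriptase, named after their values were seen, had 0.15 and 0.12, the second at a signal near background (191.1 and 191.4).

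**Figure D5:**
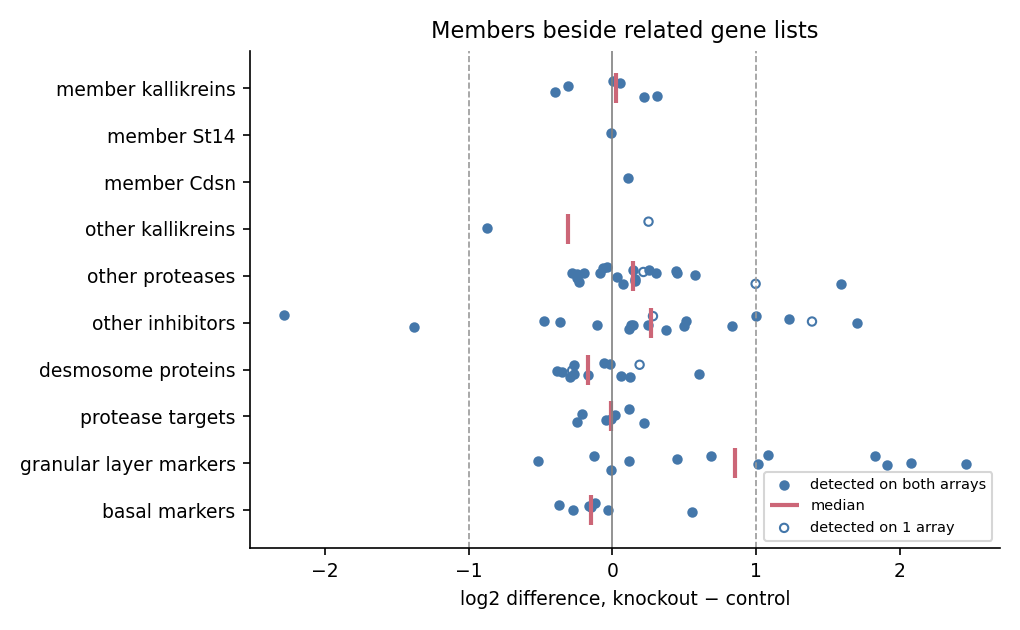
Log2 differences (x axis, knockout minus control) of single detected genes in each list (rows), filled where detected on both arrays and open where detected on 1, with the median in red and dashed lines at 2-fold. The 6 member kallikreins spanned -0.40 to 0.31, while the 18 inhibitors, 11 of them under a mean signal of 400, spanned -2.28 to 1.70.

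Genes of desmosomes and of protease targets and receptors were also within 2-fold where detected, though not all of their products are targets of the members. Of 17 corneodesmosome and desmosome genes besides Cdsn, 13 were detected and 0 differed by 2-fold, with 4 above 0, 9 below 0 and a median log2 difference of -0.17. The largest difference was 0.60 for Jup, the plakoglobin gene (335.6 and 424.6), followed by -0.39 for Perp and -0.35 for the desmocollin gene Dsc3. The plaque protein genes Pkp1 and Ppl, the brightest, had 0.06 and -0.17. Of 11 genes listed for protease receptors and other protease targets, 7 were detected, 0 differed by 2-fold and the median was -0.01. Beside the 2.39% of all detected genes at 2-fold, counts of 0 of 13 and 0 of 7 are not a result about these lists. F2rl1, which encodes the receptor PAR2 that KLK5 can cleave, named after its value was seen, had 2087.7 and 2025.8 (0.02). The thrombin receptor gene F2r had 0.22. Scnn1g and Scnn1b, subunit genes of the sodium channel that prostasin activates, had -0.24 and -0.21. Lor and Flg2 had -0.01 and 0.12.

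Some markers of the layer in which these proteases act differed by 2-fold between the arrays, and others were nearly level. Of 13 granular layer and cornified envelope markers, 12 had a probe and were detected. Of these, 6 were at 2-fold higher (5 in the deposited normalized values) and 0 lower, with a median log2 difference of 0.85. Their summed signal was 55859 in control and 66001 in knockout. Summed signals here and below are non-normalized and include background, so they can differ in direction from the normalized medians. The 12 markers included Lce1d (2.46), Lce1i (2.08) and Sprr4 (1.91). Of the 12, 3 were below 0, namely Krt2 (-0.515, at 186.9 and 165.2), Ivl (-0.13) and Lor (-0.01), and Flg2 had 0.12. The list was drawn up with earlier results of these data known. Lce1 copies are near-identical, so their probes may share targets. The 7 basal markers had a median of -0.15 (summed signal 123097 and 104415). The 5 suprabasal markers had a median of 0.06, although their summed signal was lower in knockout (125210 and 117940). Krt14, which marks basal keratinocytes, had 35929.6 and 32614.0 (log2 difference -0.03). Krt10, which marks suprabasal ones, had 35147.9 and 34069.2 (0.07). The labelled cell type was thus borne out on both arrays. The part of the granular layer difference in the member values, whether higher, lower or level, was not tested. In RNA from mixed cells, fewer cells of a type and less RNA per cell cannot be told apart.

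Signals of markers of other cell types and of sex-linked transcripts also differed between the arrays. Hair shaft and inner root sheath markers had a summed signal of 2272 in control and 1392 in knockout (9 of 12 detected, 5 at 2-fold lower), and melanocyte markers 1316 and 713 (5 of 8 detected, 2 lower). Langerhans cell markers had 4027 and 6852 (5 of 6 detected, 2 at 2-fold higher). T cell markers had 2221 and 1986 (4 of 5 detected), upper follicle markers 78386 and 84495 (6 of 7), and dermal fibroblast markers 456 and 296 (2 of 6 detected, 1 lower). Each gene in these sums carries background, with fitted means of 143.2 in control and 140.9 in knockout. The hair, melanocyte and fibroblast sums were thus mostly background in knockout. With bounds, their median log2 differences were -1.71, -0.93 and -1.12. Those of Langerhans cell, T cell and upper follicle markers were 0.86, -0.16 and 0.10. Few markers of neutrophils and macrophages (2 of 7), endothelium (2 of 5) and erythroid cells (1 of 3) were detected. In the deposited normalized values the counts at 2-fold were 1 lower for the hair markers, 1 lower for the melanocyte markers, and 0 for the Langerhans cell and fibroblast markers. The female-specific transcript Xist was 2.22-fold higher on its brighter probe in knockout (896.7 and 1769.6, 1.96-fold in the deposited values). The Y-linked Ddx3y was 7.87-fold lower on its brightest probe (828.5 and 210.3, 3.58-fold in the deposited values), and its other probes were below detection, at 134.5 and 158.7 in control. The part of these differences in the member values was not tested. Vdr itself was not lower in the array labelled knockout, at 2468.0 and 2667.0 on its brightest probe, and which part of Vdr its probes match was not analysed here.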

How the data were processed

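RNA of keratinocytes was measured on 2 arrays, 1 per group, each a pool of 3 mice per the design text. The deposited non-normalized table holds bead intensity on a linear scale without background subtraction, exported from GenomeStudio 2011.1, as the submitters' processing notes name it. A further table holds intensity normalized by the authors, with a method not given in the sources used here, and the deposited value table was identical to it for all 25697 probes. Detection p-values were deposited per the file headers, but did not follow the rows of the signals (Spearman's rho -0.005 and -0.007 across probes), so they were reassigned by signal rank.

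Background was removed with normexp (limma 3.58.1, R 4.3.3, offset 16; fitted means 143.2 and 140.9), followed by log2 and quantile normalization. Genes had a detection p under 0.05 on at least 1 array and were represented by their brightest probe. Where 1 array was below detection, a bound used the lowest detected value of that array. Symbols were updated through RefSeq for GRCm38.p6 (16938 probes by Entrez number, 7420 by accession, 465 by symbol, 552 by synonym, 322 unmatched). With 1 array per group no test was made; 2-fold was called. The steps were tested on simulated data.

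Members and lists were chosen with earlier results of these data known. Named were all members and, of each further list, the 3 detected genes with the largest difference and the 2 brightest; marker lists are given by their counts and sums, with a few examples. Alternatives were offset 50, no background removal, the deposited normalized values, median centring, other detection rules, averaging probes, symbols as filed and a signal minimum.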

Additional observations from a re-analysis of the deposited data

How the results depend on the processing

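No paired analysis was possible because each group was 1 array, and for the same reason no replicate could be left out. Of the 10 alternatives, the symbols as filed and the signal minimum were chosen after seeing the data. Across them Klk5 lay between -0.33 and -0.30 and Klk6 between -0.46 and -0.27. Klk7 lay between 0.28 and 0.31 and Klk8 between 0.21 and 0.22. Only offset 50, no background removal, the deposited normalized values and median centring rescale the signals and could move these genes. Each had 1 detected probe that passed every detection rule, so the other alternatives could not change its value. With the symbols as filed Klk8 had no value, since its filed probe was not detected. The kallikrein median lay between -0.004 and 0.03. The signs of Klk11 and St14, both near 0 on their brighter probes, depended on the setting (-0.03 to 0.003 and -0.06 to 0.13). When detection meant a signal above 95% of the olfactory receptor probes, the brighter Cst6 probe passed in knockout alone, with 95.7% of them dimmer. With a mean signal of at least 400 the inhibitor median turned to -0.11 and the kallikrein minus inhibitor median to 0.14 from -0.24, since the dimmer inhibitor genes were left out. With Wfdc3 also left out, likewise chosen after seeing the data, these were 0.01 and 0.02. The sign of the inhibitor median thus changed with 1 gene, and leaving out any other gene below that median would shift it equally. The other alternatives kept the inhibitor median between 0.11 and 0.27. The number of all genes at 2-fold fell from 228 to 112 with offset 50, 47 without background removal and 44 in the deposited normalized values. With the signal minimum 54 of 4946 genes were at 2-fold, against 228 of 9547 without it. Most genes called at 2-fold thus had a mean signal under 400. The cause of the other falls was not tested.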
